A study of Mus musculus with 12 samples.

Results

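Smooth muscle contractile genes were followed in the ileum of C57BL/6 mice as a set of 35 genes, out of 44205 genes in the deposited expression table. The set was drawn up by function, not by measured values, though with earlier results of these data known. It covers proteins of the thin filament, of myosin and the control of its phosphorylation, and of channels and calcium handling. It also covers those of intermediate filaments, dense bodies and adhesion, and the transcriptional coactivator Myocd. Of the 35 genes, 31 passed a filter of 0.5 RPKM in at least 3 libraries and were tested together with all 17662 genes that passed it; Cacna1c, Kcnma1, Sgca and Myocd did not pass and are given as levels.

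The 12 libraries came from 12 mice in 4 diet groups of 3, all 16 weeks old after 10 weeks on the diets begun at 6 weeks of age. NF mice ate a normal fat diet and drank plain water, NF-Sugar mice ate the same diet and drank a sugar solution of 23% (w/v), HF mice ate a diet with 60% of its energy from fat and drank plain water, and HF-Sugar mice had that fat diet together with the sugar solution. NF is the normal diet and HF-Sugar the Western diet of the study, which asked how that diet bears on intestinal inflammation; all mice are labelled C57BL/6 with no further allele, and the sex of each mouse is not in the labels. RNA was taken from whole pieces of snap-frozen ileum, so the muscle coat was sequenced together with mucosa, vessels, nerves and any attached fat, and the share of muscle in each piece was not measured.

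In the gut wall, contraction starts when calcium enters the smooth muscle cell or leaves its stores and switches on myosin light chain kinase, which phosphorylates the regulatory light chain so that myosin can pull on actin. Myosin phosphatase reverses this, and actin is held to the membrane and to the cell's desmin network at dense bodies. Most of these genes are under the control of serum response factor, which binds the CArG box in their promoters, with myocardin as its coactivator in smooth muscle.

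The CArG box was looked for in the RefSeq promoter windows of GRCm38.p6, which run from 250 bases before a transcription start to 50 bases after it and were at hand for 29 of the 35 genes. Actg2, Tagln, Myh11, Nexn, Itga7 and Myocd had no window and were not searched, so the shares below leave them out. Since the box is its own reverse complement, one search covered both strands. The canonical box was in a window of 3 of the 29 genes (10.3%), Myl9, Ldb3 and Fhl1, and in 1.81% of the 27025 genes of the RefSeq table. When 1 of its 6 middle bases was allowed to be C or G, a form added after the promoters had been looked at, 9 of the 29 genes (31.03%) and 11.3% of all genes held a box. The windows below are those of the most abundant actin gene, of the most abundant member of the set, and of the other two genes with the canonical box, Fhl1 and Ldb3; the box is in capitals and each window is written 5′ to 3′ on the gene's strand. A match describes letters and not a bound site.
Acta2, first box, chr19:34255424-34255481, minus strand: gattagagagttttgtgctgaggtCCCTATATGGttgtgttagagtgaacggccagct
Acta2, second box, chr19:34255374-34255431, minus strand: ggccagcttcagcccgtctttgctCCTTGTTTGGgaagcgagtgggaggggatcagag
Myl9, chr2:156775279-156775336, plus strand: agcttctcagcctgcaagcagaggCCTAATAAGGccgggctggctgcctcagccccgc
Fhl1, chrX:56779557-56779614, plus strand: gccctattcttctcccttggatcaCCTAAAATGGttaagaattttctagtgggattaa
Ldb3, chr14:34588683-34588740, minus strand: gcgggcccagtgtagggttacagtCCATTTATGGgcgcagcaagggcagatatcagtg
The boxes of Acta2, both with 1 C or G among the middle 6 bases, began 84 and 34 bases before the transcription start. That of Myl9 began 161 bases before its start and that of Fhl1 102 bases before its own. Myl9 also held a box with 1 C or G, 99 bases before its start, which is not printed. The Ldb3 box lay 35 or 109 bases before the start, depending on which of its annotated starts is taken.

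Library depth, recovered from the steps between low values, was 15.3 to 39.0 megareads, with 11.8 to 30.3 megareads in genes. Along the first principal component of all tested genes, which held 40.1% of the variance, 4 libraries stood apart, 1 in each group: NF 2, NF-Sugar 1, HF 2 and HF-Sugar 2 (group and mouse number). In these 4 libraries 73.1 to 73.7% of the recovered depth lay in genes, against 76.9 to 81.2% in the other libraries. The tissue label was met by Fabp6, the bile acid carrier of ileal enterocytes, at 2415 to 9713 RPKM. Of the genes in the lists of other cell types none was at 0 in all 12 libraries, while Myh1, a myosin of skeletal muscle, was at most 0.0522 RPKM.

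The contractile genes were read at very different levels. RPKM is a value per length of gene and per sequencing depth, so a ranking between genes depends on the length taken for each. The regulatory light chain gene Myl9 was the most abundant, with a mean of 304.4 RPKM over the 12 libraries, followed by the smooth muscle alpha-actin gene Acta2 (213.3 RPKM), the enteric gamma-actin gene Actg2 (137.3 RPKM), the LIM protein gene Csrp1 (136.9 RPKM) and the actin-binding transgelin gene Tagln (124.6 RPKM). Channel and calcium-handling genes were low: junctophilin Jph2, which couples the calcium store to the membrane, led them with a mean of 7.37 RPKM, and Cacna1c, the pore of the L-type calcium channel, had 0.378 RPKM. Least abundant was Sgca, the alpha-sarcoglycan gene, with a mean of 0.213 RPKM and between 1 and 23.0 recovered reads per library. Myocd had 13.0 to 65.0 reads per library.

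**Figure D1:**
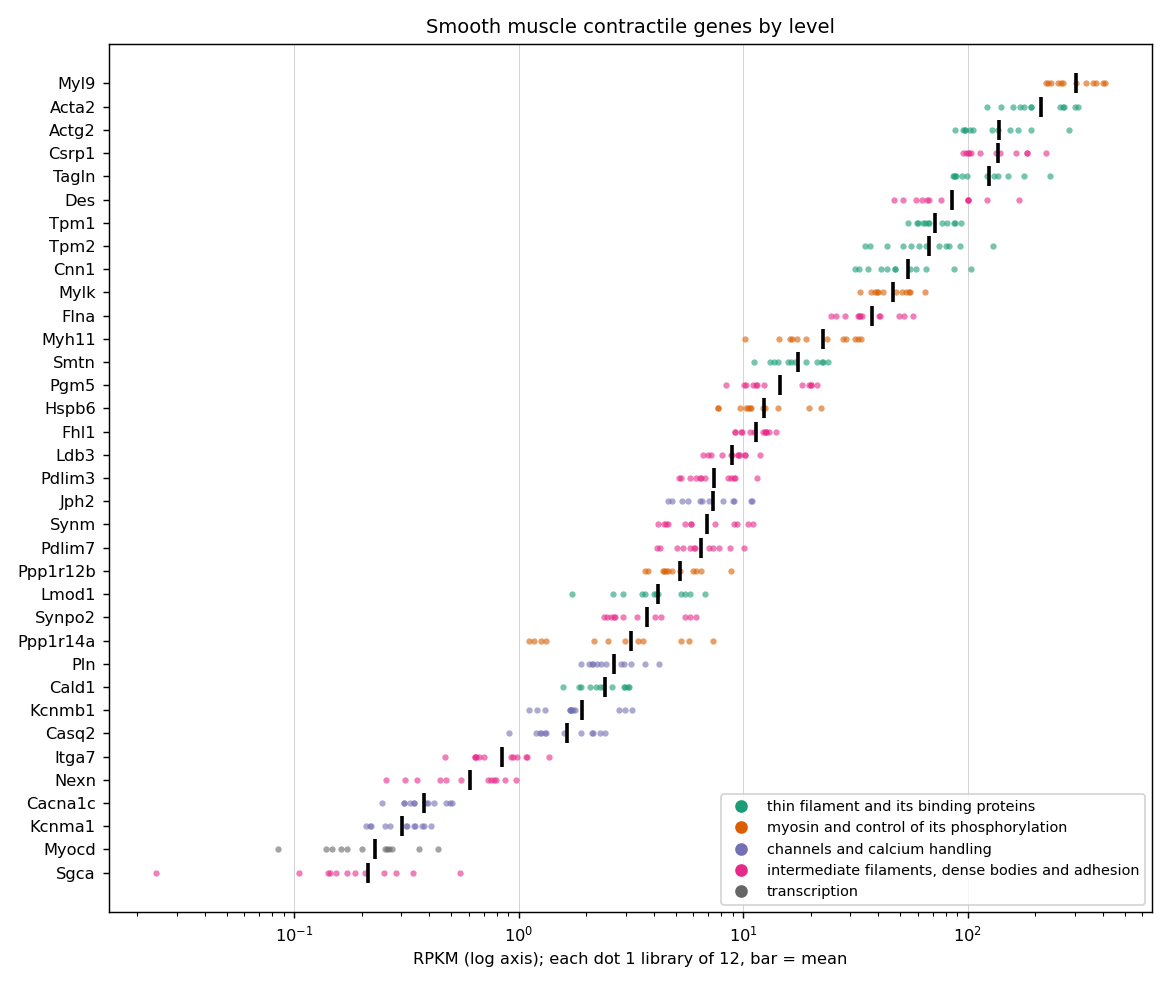
Level of each of the 35 genes in RPKM on a log axis, with 1 dot per library (12 libraries), a black bar at the mean and colours for the 5 roles. Means run from 0.213 RPKM for Sgca to 304.4 RPKM for Myl9, and the channel genes and Myocd sit in the lower part of the plot.

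The libraries of one group often differed more from each other in these genes than the diet groups did. The median standard deviation within groups was 0.38 on the log2(RPKM + 1) scale over the 31 tested members, against 0.22 over all 17662 genes and 0.23 over the 13922 genes with a mean of at least 1 RPKM. The median range among the 3 mice of a group was 0.47 in NF, 0.85 in NF-Sugar, 0.26 in HF and 0.81 in HF-Sugar for the members, and between 0.36 and 0.39 in each group for all genes. Mice of the HF group were thus the most alike in these genes, and those of the sugar groups the least.

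The mean over the 31 members, taken as each gene's deviation from its own mean over the 12 libraries on the log2 scale, was 0.30, -0.18 and 0.13 in NF 1 to 3. It was -0.32, 0.50 and 0.39 in NF-Sugar, -0.14, -0.11 and -0.25 in HF, and -0.29, 0.35 and -0.37 in HF-Sugar. The group means spanned 0.35, while the libraries within a group spanned up to 0.82. All 3 HF libraries were below 0, and each of the other groups held libraries on both sides of it. These patterns were shared by nearly the whole set: of the 35 genes, 34 were lowest among the NF mice in NF 2, 34 were lowest among the NF-Sugar mice in NF-Sugar 1, and 31 were highest among the HF-Sugar mice in HF-Sugar 2. These counts are in RPKM as deposited; on the scaled log2 values that entered the test they were 26, 30 and 29 of the 31 tested genes. Summed over the 35 genes, the level was lowest in HF-Sugar 1, at 1006 RPKM or 0.219% of the library's total RPKM, and highest in NF-Sugar 2, at 2253 RPKM; as a share it was highest in NF-Sugar 3, at 0.440%. In bulk RNA, fewer smooth muscle cells in a piece of tissue and less RNA of these genes per cell cannot be told apart. NF 2, NF-Sugar 1 and HF-Sugar 2 are also among the 4 libraries with the lowest share of reads in genes, and the part of that difference between libraries was not tested.

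**Figure D2:**
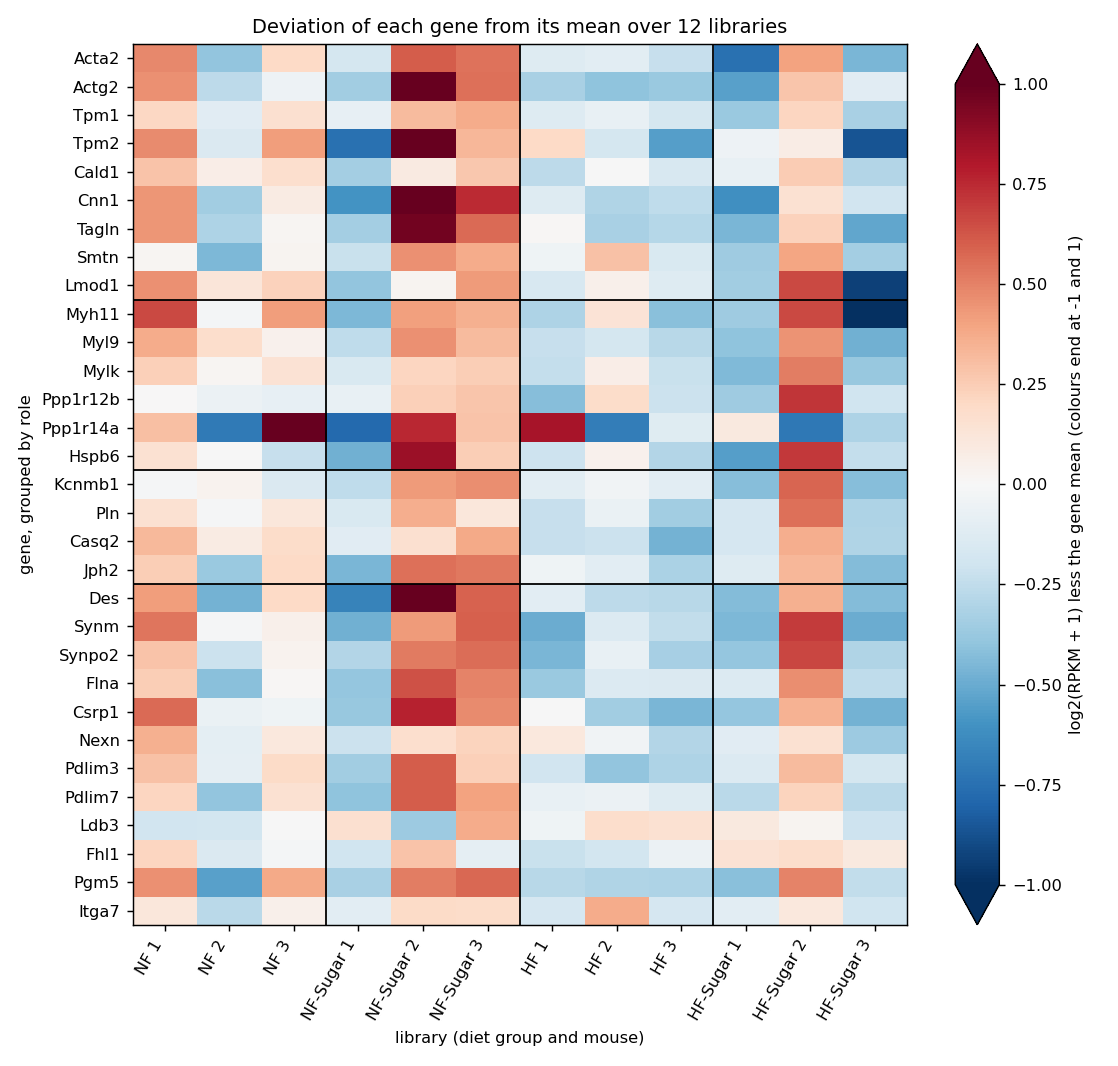
Deviation of each of the 31 tested genes from its own mean over the 12 libraries, on the log2(RPKM + 1) scale, with libraries in columns by diet group, genes in rows by role, red above and blue below the mean. NF 2 and NF-Sugar 1 are mostly blue and HF-Sugar 2 mostly red beside the other mice of their groups, and Ldb3 and Ppp1r14a depart from the columns.

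Thin filament genes give the clearest view of this spread. Acta2 stood at 269.0, 141.3 and 257.6 RPKM in NF, 170.9, 310.8 and 302.4 RPKM in NF-Sugar, 191.5, 190.7 and 179.2 RPKM in HF, and 121.6, 265.8 and 159.2 RPKM in HF-Sugar. NF 2, NF-Sugar 1, HF-Sugar 1 and HF-Sugar 3 were below all HF mice, and all groups overlapped with each other in RPKM. Actg2, the actin form that prevails in gut muscle, had 167.4, 97.5 and 136.9 RPKM in NF, 95.6, 283.4 and 191.4 RPKM in NF-Sugar, 105.4, 97.8 and 102.2 RPKM in HF, and 88.3, 153.8 and 128.0 RPKM in HF-Sugar. The HF mice lay close together here (101.8 ± 3.81 RPKM, SD, n = 3), near the lowest mouse of each other group. Because the actin genes have near-identical coding sequences, reads may have been divided between Acta2 and Actg2, and the ratio of Actg2 to Acta2 ranged from 0.513 to 0.912 over the libraries.

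Calponin and transgelin, which bind actin and mark differentiated smooth muscle, followed the same mice. Cnn1, the calponin gene, had 65.4, 36.1 and 59.1 RPKM in NF, 31.4, 103.3 and 87.2 RPKM in NF-Sugar, 47.6, 41.2 and 43.6 RPKM in HF, and 32.9, 55.5 and 47.6 RPKM in HF-Sugar. Tagln had 151.9, 86.7 and 131.3 RPKM in NF, 88.5, 232.0 and 177.7 RPKM in NF-Sugar, 122.6, 94.8 and 99.8 RPKM in HF, and 85.7, 136.3 and 88.1 RPKM in HF-Sugar. In both genes NF-Sugar held the highest mouse, and in Cnn1 also the lowest. Tagln lies on chromosome 9 (45929619 to 45936058, minus strand, GRCm38) and overlaps Pcsk7, so its reads could not be told from those of that neighbour unless the counting used strand, which is not given in the sources used here. Tropomyosin, which lies along actin, is made from Tpm1 and Tpm2, and Tpm2 ranged from 35.05 to 129.97 RPKM. Tpm1 had 77.3, 59.5 and 87.1 RPKM in NF, 63.5, 88.3 and 93.2 RPKM in NF-Sugar, 66.4, 67.6 and 64.6 RPKM in HF, and 54.5, 80.8 and 60.4 RPKM in HF-Sugar. Its HF mice lay inside the range of the NF mice.

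Leiomodin 1, an actin nucleator, caldesmon and smoothelin completed the thin filament genes at lower levels. Lmod1 had 5.505, 4.02 and 5.31 RPKM in NF, 2.64, 4.08 and 5.79 RPKM in NF-Sugar, 3.55, 4.18 and 3.66 RPKM in HF, and 2.92, 6.78 and 1.73 RPKM in HF-Sugar, so that HF-Sugar held its highest and its lowest mouse. Cald1, the caldesmon gene, had 2.94, 2.32 and 3.07 RPKM in NF, 1.58, 2.60 and 3.11 RPKM in NF-Sugar, 1.86, 2.37 and 2.08 RPKM in HF, and 2.21, 2.97 and 1.89 RPKM in HF-Sugar. Smtn, the smoothelin gene, had 16.3, 11.2 and 19.1 RPKM in NF, 13.7, 23.9 and 22.8 RPKM in NF-Sugar, 17.0, 21.4 and 15.8 RPKM in HF, and 13.2, 22.4 and 14.2 RPKM in HF-Sugar, and NF 2 was its lowest mouse.

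Myosin and its regulators came next. Myh11, the smooth muscle myosin heavy chain (chromosome 16, 14194535 to 14291372, minus strand, GRCm38), had 32.4, 19.0 and 31.5 RPKM in NF and 14.5, 28.6 and 27.8 RPKM in NF-Sugar. It had 17.4, 23.7 and 16.2 RPKM in HF, and 16.5, 33.6 and 10.2 RPKM in HF-Sugar, which held both the highest and the lowest mouse of the study for this gene. Mylk, the light chain kinase, was steadier, with 50.9, 41.9 and 55.3 RPKM in NF, 38.7, 53.1 and 54.9 RPKM in NF-Sugar, 39.5, 48.1 and 39.99 RPKM in HF, and 33.3, 64.3 and 37.3 RPKM in HF-Sugar. Myl9 had 363.1, 305.3 and 335.9 RPKM in NF and 259.5, 264.8 and 252.4 RPKM in HF, and these groups did not overlap. Of the phosphatase side, the targeting subunit gene Ppp1r12b ranged from 3.64 to 8.84 RPKM. The phosphatase inhibitor gene Ppp1r14a ranged from 1.11 to 7.36 RPKM, 6.65-fold and the widest span among the tested members, on 36.0 to 243.0 recovered reads. Hspb6, a small heat shock protein phosphorylated in relaxing muscle, ranged from 7.72 to 22.1 RPKM.

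Among the channels and calcium-handling genes, Casq2, whose protein calsequestrin 2 holds calcium in the store, separated HF from NF. It had 2.12, 1.59 and 2.13 RPKM in NF, 1.32, 1.90 and 2.42 RPKM in NF-Sugar, 1.25, 1.25 and 0.904 RPKM in HF, and 1.31, 2.31 and 1.19 RPKM in HF-Sugar. Phospholamban, the brake on the calcium pump of the store (Pln), ranged from 1.89 to 4.21 RPKM and Jph2 from 4.63 to 10.9 RPKM. The beta subunit of the large-conductance potassium channel, Kcnmb1, ranged from 1.11 to 3.19 RPKM, and the pore gene Kcnma1 from 0.209 to 0.406 RPKM, under the filter. Pln overlaps Cep85l and Kcnmb1 overlaps Kcnip1. Most Pln and Kcnma1 values did not come out as whole reads when depth was recovered, while nearly all values of the other low members did.

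Desmin, the intermediate filament of muscle, moved with the actin genes across mice. Des had 99.96, 51.6 and 99.9 RPKM in NF, 47.0, 169.1 and 121.6 RPKM in NF-Sugar, 75.7, 66.2 and 67.4 RPKM in HF, and 58.6, 100.03 and 62.7 RPKM in HF-Sugar. The HF mice again lay within a narrow band between the extremes of the other groups. Synm, a desmin partner, had 9.35, 5.86 and 7.48 RPKM in NF and 4.45, 5.86 and 5.52 RPKM in HF. Its highest HF value lay just under the lowest NF value, so that the groups only just failed to overlap. Flna, the actin crosslinker filamin A, ranged from 24.5 to 57.1 RPKM, Csrp1 from 95.3 to 223.8 RPKM, and the adhesion protein gene Pgm5 from 8.38 to 21.4 RPKM. The actin-binding protein genes Synpo2 (2.39 to 6.14 RPKM) and Nexn (0.257 to 0.972 RPKM), the PDZ and LIM protein gene Pdlim7 (4.14 to 10.1 RPKM) and the laminin receptor gene Itga7 (0.472 to 1.37 RPKM) spanned 2.44-fold or more between their extreme libraries. Pdlim3, another PDZ and LIM protein gene, had 8.55, 6.14 and 9.22 RPKM in NF, 5.17, 11.6 and 8.81 RPKM in NF-Sugar, 6.397, 5.30 and 5.81 RPKM in HF, and 6.48, 9.09 and 6.74 RPKM in HF-Sugar, and all HF-Sugar mice were above all HF mice. Narrower spans were seen for the Z-disc protein gene Ldb3 (6.66 to 11.9 RPKM, 1.79-fold) and the LIM protein gene Fhl1 (9.23 to 14.0 RPKM, 1.52-fold). Fhl1 had 12.5, 9.25 and 12.2 RPKM in NF, 9.23, 14.0 and 10.7 RPKM in NF-Sugar, 9.81, 9.92 and 11.2 RPKM in HF, and 12.6, 12.7 and 13.1 RPKM in HF-Sugar, with the HF-Sugar mice close together.

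Myocd, which lies on chromosome 11 (65176561 to 65269989, minus strand, GRCm38), had 0.260, 0.147 and 0.264 RPKM in NF, 0.0851, 0.439 and 0.255 RPKM in NF-Sugar, 0.274, 0.173 and 0.162 RPKM in HF, and 0.138, 0.358 and 0.201 RPKM in HF-Sugar. NF 2 and NF-Sugar 1 were the lowest of their groups and HF-Sugar 2 the highest of its group, as for most of the other genes. The coactivator was read too thinly for a test.

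**Figure D3:**
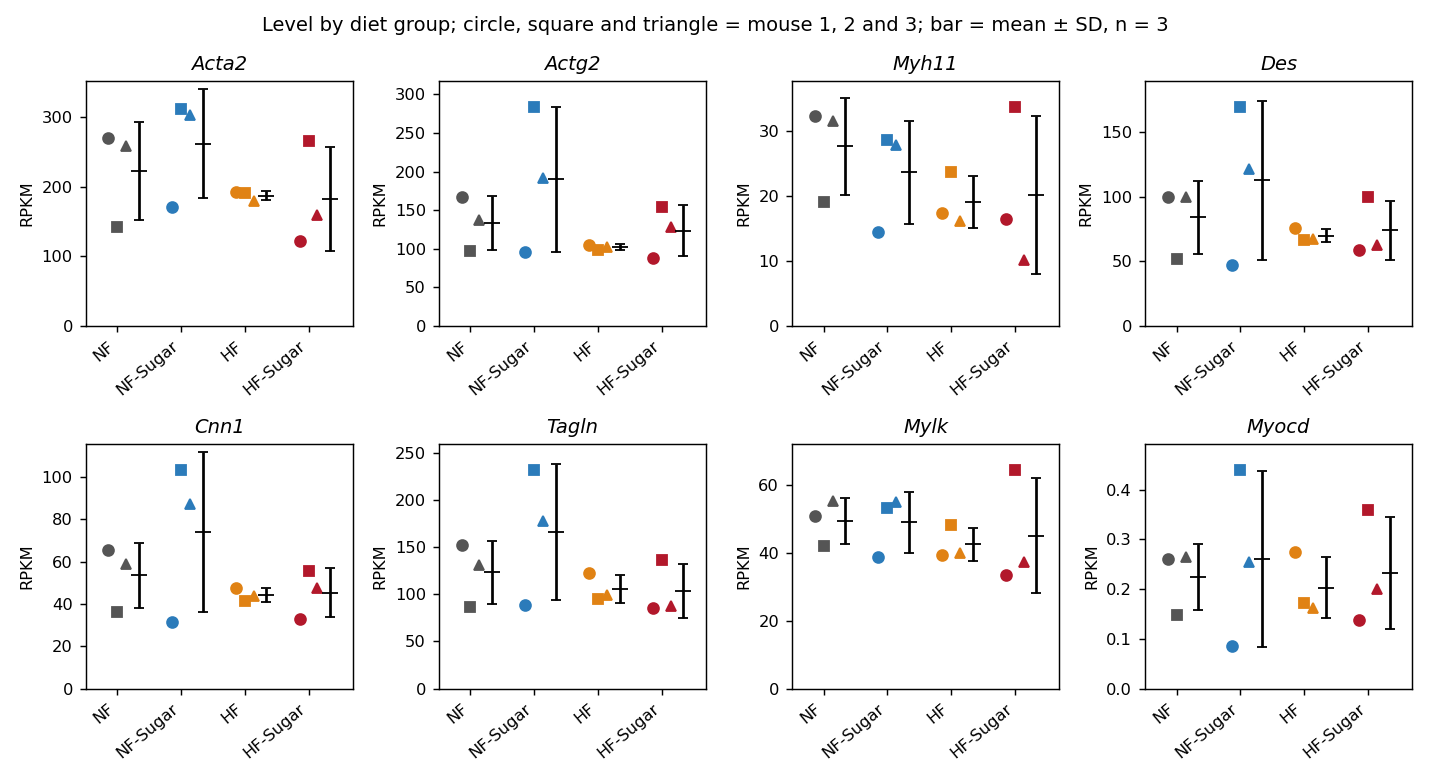
RPKM of 8 contractile genes by diet group, with circle, square and triangle for mouse 1, 2 and 3 and a black bar for the mean ± SD (n = 3). In Acta2 the HF mice lie between 179.2 and 191.5 RPKM while the other groups reach from 121.6 to 310.8 RPKM, and in RPKM as deposited the groups overlap in all 8 genes.

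How closely the genes kept together was measured by correlating, over the 12 libraries, each gene's deviations from its group means. The median Pearson r over the 465 pairs of tested members was 0.79 and 95.1% of the pairs were above 0, against a median of 0.00 and 49.8% over all pairs of tested genes. These values are a description, since the points share their libraries, scaling and tissue pieces. With the mean of the other members, 14 of the 31 genes had an r of at least 0.9, led by Flna (0.96), Jph2 (0.96) and Tpm1 (0.96). Ppp1r14a (0.31) and Ldb3 (-0.14) had the least likeness. Without the 4 libraries that stood apart, 2 mice per group remain and the median r over the pairs was 0.25. There 66.0% of the pairs were above 0, against 49.9% over all pairs of tested genes. The order of the genes changed too, with an r of 0.41 for Flna, 0.61 for Jph2 and 0.06 for Tpm1.

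The first comparison set the Western diet against the normal diet (HF-Sugar minus NF). Means were lower in HF-Sugar for 26 of the 31 members and higher for 5 (Fhl1, Ldb3, Ppp1r12b, Flna and Smtn), and the median difference was -0.21 on the log2(RPKM + 1) scale, against -0.01 over all genes. No member was called at an adjusted p of 0.05 by limma, and neither was any other gene (0% of 17662; 781 genes had an unadjusted p under 0.05, none of them a member). The differences were -0.61 ± 0.40 (SE) for Myh11, -0.47 ± 0.34 for Lmod1 and -0.25 ± 0.19 for Tpm1, the members with the smallest unadjusted p. Their adjusted p in limma was 0.961, which was also the smallest among the members. In RPKM as deposited Fhl1 was higher in all HF-Sugar mice than in all NF mice, by 12.62 RPKM in the lowest HF-Sugar mouse against 12.55 RPKM in the highest NF mouse, and no member lay below NF without overlap; 7.21% of all genes lay above and 2.97% below. On the scaled values that were tested Fhl1 overlapped too, and no member was free of overlap, against 6.45% of all genes above and 5.01% below. By role, 8 of 9 thin filament genes, 5 of 6 myosin genes, 4 of 4 tested channel and calcium genes and 9 of 12 tested genes of filaments, dense bodies and adhesion had lower means in HF-Sugar, with medians of -0.28, -0.29, -0.08 and -0.11. Of the marker lists of other tissue, all 5 tested adipocyte genes (median -0.76) and all 12 epithelial genes (median -0.18) had lower means too. So had 8 of 11 neuron and glia genes (median -0.04) and 4 of 6 pericyte genes (median -0.12). Lower means were also seen for 4 of 5 tested genes of skeletal and cardiac muscle (median -0.23) and the 2 tested mesothelial genes (median -0.36). Means were higher for all 7 endothelial genes (median 0.23) and 6 of 9 fibroblast genes (median 0.16). They were also higher for the 3 tested genes of interstitial cells of Cajal (median 0.09) and 4 of 7 T and B cell genes (median 0.30). The part of these tissues in the result was not tested.

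Several single libraries, each left out in turn, moved how far these means lay apart. Without HF-Sugar 2 the median difference was -0.38 and 29 of 31 members had lower means, and without NF 1 it was -0.05 with 19 of 31 lower. Without HF-Sugar 1 and without HF-Sugar 3 it was -0.08, with 20 of 31 lower in each fit. Without the 4 libraries that stood apart, which include the lowest NF mouse and the highest HF-Sugar mouse for most of these genes, the median was -0.51, and 22 of the 31 members were lower at an unadjusted p under 0.05, as were 4.71% of all genes. No member was called there either, the smallest adjusted p in limma being 0.420 for Pgm5. Leaving out such mice widens the difference in these genes by itself, so the count is a description only.

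Fat alone was examined on plain water (HF minus NF). Means were lower in HF for 28 of 31 members, the exceptions being Ldb3, Smtn and Itga7, and the median difference was -0.26, against -0.01 over all genes. No member and no other gene was called by limma (0% of 17662; 665 genes at an unadjusted p under 0.05). Casq2 was the 1 member with an unadjusted p under 0.05, with a difference of -0.50 ± 0.18 (SE) and an adjusted p of 0.9997; 1.9% of all genes were lower at that unadjusted level. Pdlim3 (-0.43 ± 0.23) and Cald1 (-0.32 ± 0.18) came next. In RPKM as deposited Myl9, Casq2 and Synm lay below all NF mice in all HF mice, as did 2.97% of all genes, and no member lay above, where 5.37% of all genes did. On the scaled values 8 members lay below without overlap, Actg2, Cald1, Lmod1, Pln and Pdlim3 in addition, as did 4.59% of all genes, and none above, where 4.43% did. The 5 tested adipocyte genes (median -0.55) and 9 of the 12 epithelial genes (median of the 12 -0.17) had lower means in HF too. So had 7 of 11 neuron and glia genes (median -0.10) and 5 of 6 pericyte genes (median -0.24). The 5 tested genes of skeletal and cardiac muscle (median -0.23) and the 2 tested mesothelial genes (median -0.32) had lower means as well. Means were higher for 6 of 7 endothelial genes (median 0.10) and 6 of 9 fibroblast genes (median 0.04). They were also higher for the 3 tested Cajal cell genes (median 0.15) and 4 of 7 T and B cell genes (median 0.17). The part of these tissues was not tested.

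When HF and NF alone entered the fit, 7 members were lower at an unadjusted p under 0.05, as were 1.59% of all genes, and none was called. The main fit instead pooled the spread within all 4 groups, the sugar groups included. The median difference was -0.15 without NF 1 and -0.42 without NF 2. Without the 4 libraries that stood apart the median difference was -0.42 and 11 members were lower at an unadjusted p under 0.05, against 1.68% of all genes. That fit leaves out NF 2, the lowest NF mouse for most members, so the count is a description only. HF-Sugar minus NF and HF minus NF share their NF mice, so the directions of the members are not independent between them.

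Sugar alone was examined on the normal fat diet (NF-Sugar minus NF). Here 20 of 31 members had higher means in NF-Sugar and 11 lower ones, with a median of 0.13, and none was called (0% of all genes by limma; 327 genes at an unadjusted p under 0.05, none a member). The differences of the members with the smallest unadjusted p were 0.34 ± 0.26 (SE) for Smtn, 0.39 ± 0.35 for Actg2 and 0.35 ± 0.34 for Tagln. No member was free of overlap in either direction, against 2.64% of genes lower and 3.22% higher in RPKM and 3.32% lower and 3.3% higher on the scaled values. All 12 epithelial genes (median -0.20) and all 5 adipocyte genes (median -0.17) had lower means in NF-Sugar. All 9 tested fibroblast genes (median 0.25), the 3 tested Cajal cell genes (median 0.10) and 5 of 7 endothelial genes (median 0.07) had higher means. Neuron and glia genes were divided, with 6 lower and 5 higher, and 4 of 6 pericyte genes were lower. The direction of the members rested on single mice: without NF-Sugar 1 the median was 0.32 with 30 of 31 members higher, and without NF-Sugar 2 it was -0.06. Without the 4 libraries that stood apart 7 members were higher at an unadjusted p under 0.05, against 1.93% of all genes. NF 2 and NF-Sugar 1, left out there, were the lowest mice of their groups for most members, so the count is a description only.

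**Figure D4:**
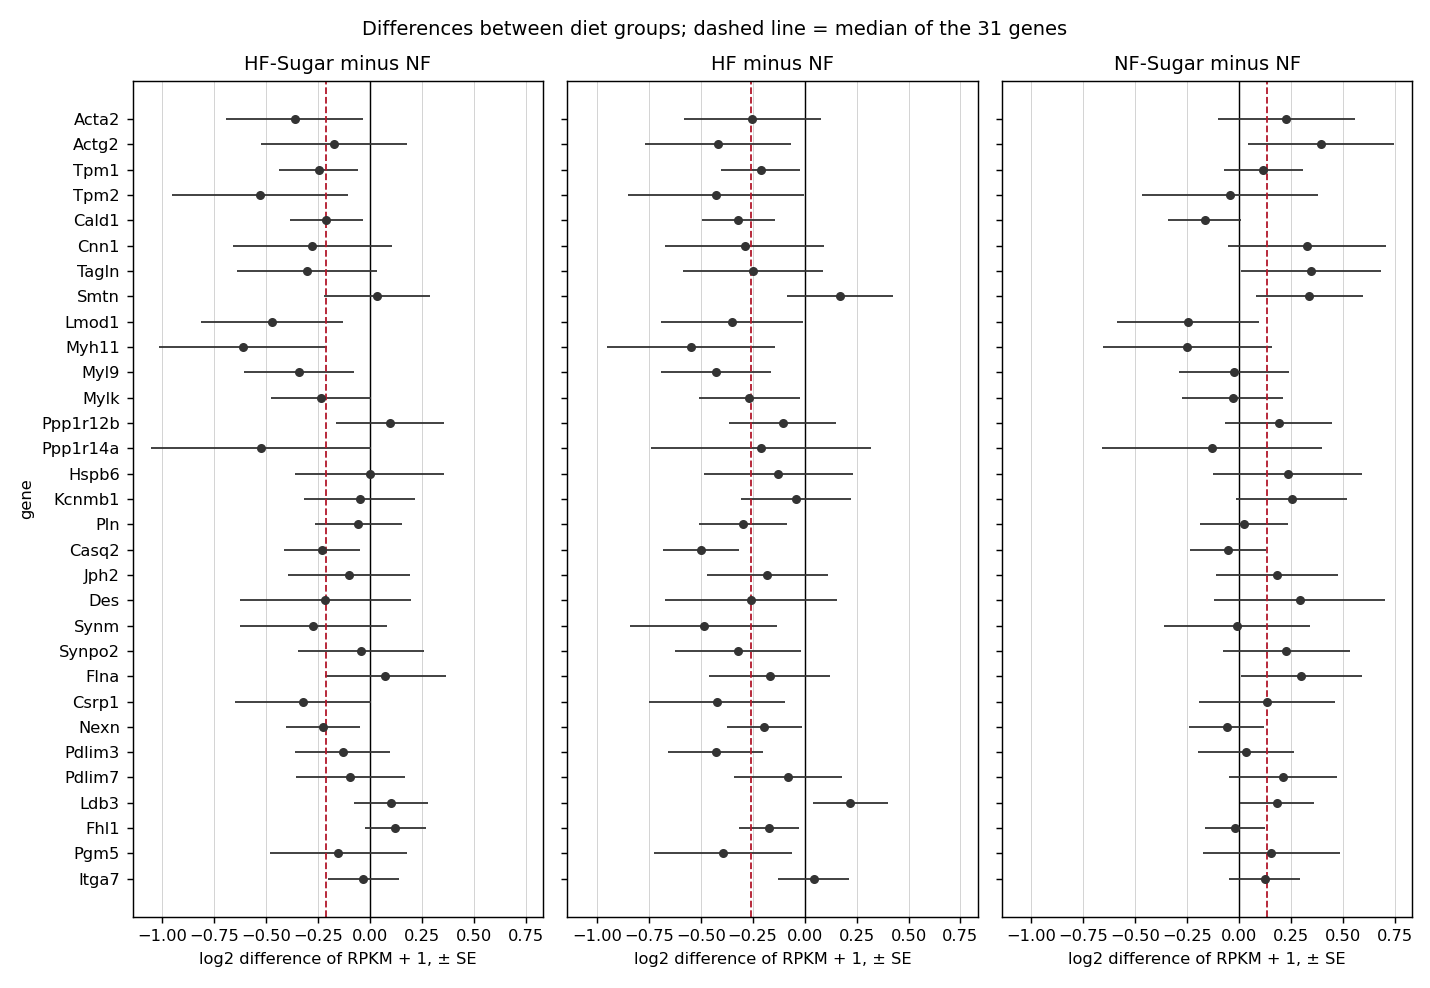
Difference between diet groups for each of the 31 tested genes, in log2 of RPKM + 1, with bars for the standard error of the fit and a dashed line at the median of the 31 genes. The medians are -0.21 for HF-Sugar minus NF, -0.26 for HF minus NF and 0.13 for NF-Sugar minus NF, and the panels share the NF mice.

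Sugar on top of fat (HF-Sugar minus HF) left the set divided, with 13 members lower and 18 higher and a median of 0.04. None of the members was called or had an unadjusted p under 0.05 (787 genes did); 1 gene of the 17662 was (0.00566%), the interleukin gene Il1b. Fhl1 had the smallest unadjusted p among the members, with 12.6, 12.7 and 13.1 RPKM in HF-Sugar against 9.81, 9.92 and 11.2 RPKM in HF, a difference of 0.29 ± 0.14 (SE) with an adjusted p of 0.9997 in limma. Fhl1 and Pdlim3 were above HF without overlap, both in RPKM, as were 4.69% of all genes, and on the scaled values, as were 5.27%. No member was below HF without overlap, where 5.15% of all genes were in RPKM and 4.72% on the scaled values. Single libraries moved the median either way. Without HF-Sugar 2 it turned to -0.16 and 26 members had lower means. Without HF-Sugar 3 it was 0.23 with 25 members higher, and without HF-Sugar 1 it was 0.18 with 23 higher.

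Fat on top of sugar (HF-Sugar minus NF-Sugar) gave lower means in HF-Sugar for 30 of 31 members, Fhl1 being the exception, with a median of -0.28. No member was called and no gene was (0%; limma), with 305 genes but no member at an unadjusted p under 0.05. Tagln (-0.65 ± 0.34, SE), Tpm1 (-0.36 ± 0.19) and Acta2 (-0.59 ± 0.33) had the smallest unadjusted p, with an adjusted p of 1 in limma. All members overlapped between these groups, where 1.64% of genes were lower and 4.29% higher without overlap in RPKM, and 2.55% lower and 3.25% higher on the scaled values. The 5 tested adipocyte genes had lower means in HF-Sugar (median -0.59), as had 8 of the 12 epithelial genes (median of the 12 -0.04). So had 8 of 9 fibroblast genes (median -0.12) and 5 of 6 pericyte genes (median -0.09). Lower means were also seen for 4 of 5 tested genes of skeletal and cardiac muscle (median -0.15) and the 2 tested mesothelial genes (median -0.29). All 7 endothelial genes (median 0.14) and all 7 T and B cell genes (median 0.19) had higher means. Single libraries moved the members' median: it was -0.12 with 24 members lower without HF-Sugar 3, -0.15 without HF-Sugar 1 or NF-Sugar 3 and -0.14 without NF-Sugar 2. Without NF-Sugar 1 it was -0.54 and 10 members were lower at an unadjusted p under 0.05, against 1.53% of all genes, and without HF-Sugar 2 it was -0.55 with 12 such members, against 1.66%. Without the 4 libraries that stood apart the median was -0.82 and 28 of 31 members were lower at an unadjusted p under 0.05, against 3.24% of all genes. The smallest adjusted p of a member in limma was 0.395 in that fit. NF-Sugar 1 was the lowest of its group in 30 of the 31 members and HF-Sugar 2 the highest in 29. Leaving out either deepens the difference in these genes by itself, so the counts of these fits are a description only.

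Whether the effect of fat differed with the drink was tested as an interaction in the same fit. The effect of fat under sugar minus that under water had a median of -0.06 over the members, 17 of them below 0 and 14 above, and no member or other gene was called (0% by limma; 458 genes at an unadjusted p under 0.05, none a member). Fhl1 (0.31 ± 0.20, SE), Smtn (-0.47 ± 0.36) and Casq2 (0.32 ± 0.26) had the smallest unadjusted p. Leaving out single libraries moved the number of members below 0 between 9 and 26 and the median between -0.29 and 0.14. When the 4 libraries that stood apart were left out 28 members were below 0, the median was -0.36, and 6 members were below 0 at an unadjusted p under 0.05, against 1.14% of all genes. The mice left out were the extremes of their groups for most members, so these counts are a description only.

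Other genes of the contraction pathway were followed as a list of 38, of which 31 were tested. The list holds the upstream kinases and factors and the broadly expressed partners of the members, among them the essential light chain (Myl6, 48.9 to 92.1 RPKM) and the non-muscle tropomyosin Tpm4 (21.5 to 30.1 RPKM). None of the 31 was called in any comparison. In HF minus NF 24 of the 31 had lower means, with a median of -0.11, and 3 had an unadjusted p under 0.05: the kinases Rock1 (-0.27 ± 0.11, SE) and Rock2 (-0.29 ± 0.10), which restrain myosin phosphatase, and its catalytic subunit Ppp1cb (-0.27 ± 0.10). Over all 17662 genes 52.8% had lower means in HF, and 665 had an unadjusted p under 0.05 in limma. Rock1 also had an unadjusted p under 0.05 in NF-Sugar minus NF (-0.39 ± 0.11) and HF-Sugar minus NF (-0.27 ± 0.11), comparisons that share the NF mice, and Rock1 (0.40 ± 0.16) and Rock2 (0.33 ± 0.14) had one in the interaction. In HF-Sugar minus NF 13 were lower and 18 higher, with a median of 0.01. Serum response factor itself (Srf) ranged from 15.2 to 25.4 RPKM, with 20.1 ± 4.61 RPKM in NF and 19.95 ± 1.119 RPKM in HF (SD, n = 3).

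Markers of some other tissues in the ileal wall moved with the contractile genes between mice of a group, and those of others did not. Enteric neuron and glia genes, 15 genes led by Uchl1, Prph and Tubb3, summed to 33.0, 23.4 and 34.3 RPKM in NF 1 to 3, 20.5, 30.97 and 37.4 RPKM in NF-Sugar, 28.5, 28.8 and 26.2 RPKM in HF and 27.7, 35.6 and 23.7 RPKM in HF-Sugar. NF 2 and NF-Sugar 1 were lowest and HF-Sugar 2 highest in their groups, as for the contractile genes. The 8 pericyte and vascular smooth muscle genes, led by Rgs5, Kcnj8 and Mcam, had the same lowest and highest mice in those groups, with sums from 31.2 to 61.4 RPKM. The 7 adipocyte genes, led by Cidec, Cfd and Adipoq, ranged more widely, from 11.3 to 90.7 RPKM; their mean deviations were lowest in NF 2 and NF-Sugar 1 and highest in HF-Sugar 2 within those groups.

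Fibroblast genes (10, led by Dpt, Fbln1 and Col6a1) summed to 44.8 to 70.3 RPKM, and their sums too were lowest in NF 2 and NF-Sugar 1 and highest in HF-Sugar 2 among the mice of those groups, whereas by mean deviation NF 1 (-0.17) was below NF 2 (-0.10). Genes of interstitial cells of Cajal (4, led by Kit, Ano1 and Gja1) kept between 3.87 and 6.13 RPKM, and endothelial genes (7, led by Pecam1, Eng and Cdh5) between 9.60 and 15.8 RPKM. By mean deviation Cajal cell genes were lowest in NF-Sugar 1 and highest in HF-Sugar 2 within those groups. Among the NF mice they were lowest in NF 1 (-0.17), where the contractile mean was highest. Endothelial genes were highest in NF-Sugar 1 (0.005) and HF-Sugar 3 (0.20) within their groups, where the contractile mean was lowest. Epithelial genes (12, led by Fabp6, Krt8 and Lgals4) summed to 7977 to 17478 RPKM, a sum in which Fabp6 has the highest mean, and their mean deviation was lowest in NF-Sugar 2 (-0.40) and HF-Sugar 3 (-0.31). Among the NF-Sugar mice their mean deviation was highest in NF-Sugar 1 (0.10). Mesothelial genes (5, with Krt19, which epithelium shares, in the lead) summed to 847 to 1411 RPKM, genes of T and B cells (7) to 19.6 to 39.7 RPKM, and those of skeletal and cardiac muscle (12, led by Acta1, Ckm and Actc1) to 11.6 to 27.6 RPKM. By mean deviation T and B cell genes were highest in NF 2 and NF-Sugar 1 and lowest in HF-Sugar 2 within those groups. The part of nerve, vessel and fat tissue in the differences of the contractile genes was not tested.

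**Figure D5:**
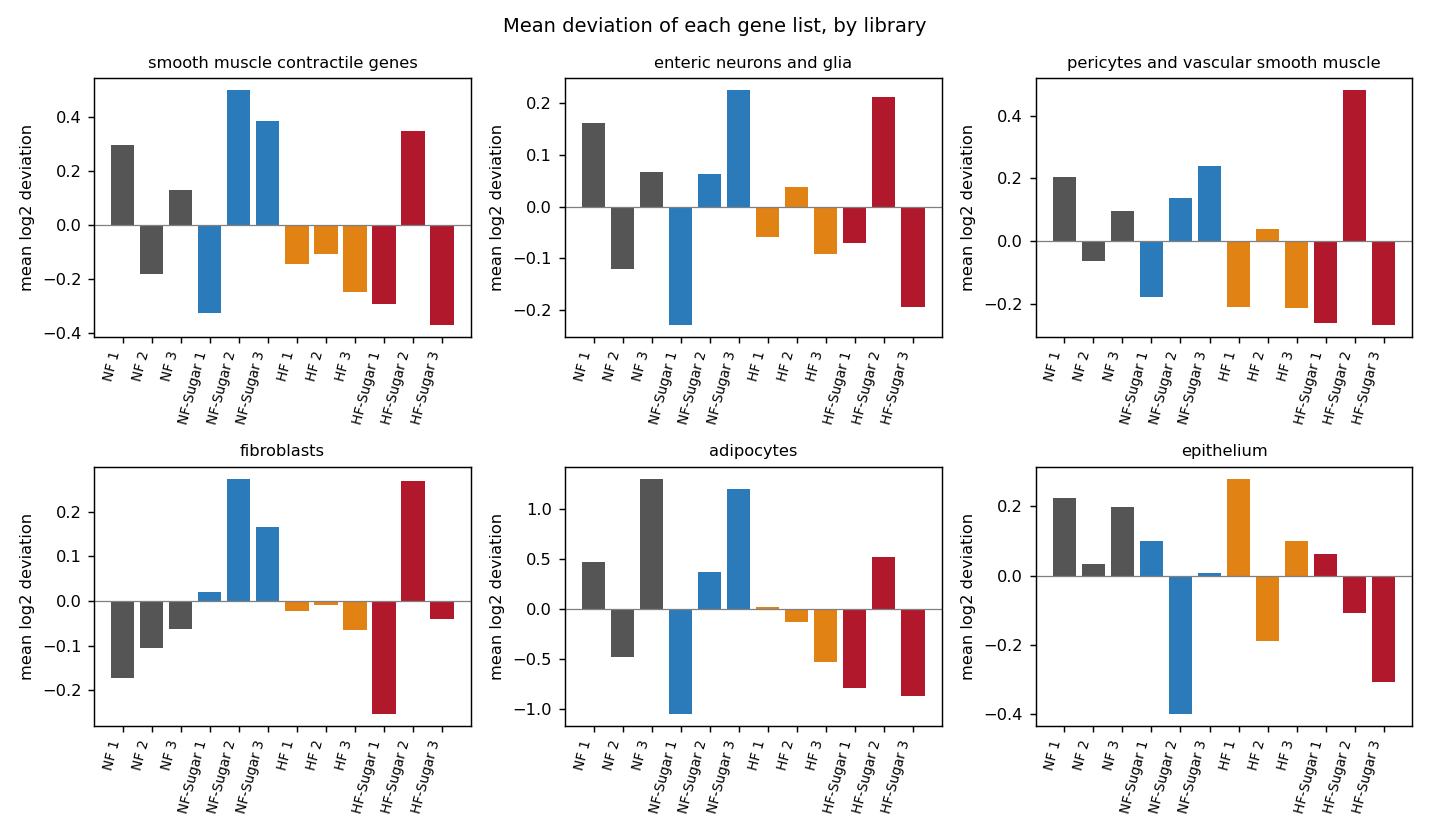
Mean deviation from the 12-library mean, on the log2(RPKM + 1) scale, over the tested genes of 6 lists, with 1 bar per library coloured by diet group; each panel has its own axis. NF 2, NF-Sugar 1 and HF-Sugar 2 keep their place within their groups in the contractile, neuron, pericyte and adipocyte panels.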

How the data were processed

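Ileal RNA of 12 mice (per the labels, RIN above 8 and the Ion Total RNA-Seq Kit v2) was, per the study's methods, depleted of rRNA and sequenced on an Ion Proton. Reads were aligned with STAR 2.5.3a to mm10 and quantified in Partek Flow with Ensembl 91 by the authors, who deposited RPKM values. The unit rests on the values, and the strand setting of the counting is not given in the sources used here. Of 44231 rows, 26 with a bare number as name (at most 0.135% of RPKM) were left out. RPKM were scaled by trimmed means (30% and 5% trims) over the 17662 genes with at least 0.5 RPKM in 3 libraries and tested as log2(RPKM + 1) with limma 3.58.1 in R 4.3.3, all 4 groups in one fit with 8 residual degrees of freedom, Benjamini-Hochberg adjusted over all tested genes, threshold 0.05. The pseudocount understates changes of low genes. On simulated data for HF minus NF (16674 genes, 200 changed) 50% of changes of 2-fold and 92% of 4-fold were recovered, and 9 unchanged genes were called. The simulation gave every gene the same dispersion and did not take up the wider spread of the members. A count test as in the study's own methods needs counts, so limma took its place. Depth came from the steps between low RPKM with GENCODE M21 lengths; 88.1 to 90.1% of low values were whole within 0.03 reads. Each library is labelled as 1 mouse, so p-values rest on the spread between mice, 3 a group. That spread was pooled over all 4 groups and moderated across genes, so each comparison of 2 groups also carries the spread of the other groups. The SD of the mean over the members was 0.07 in HF, 0.24 in NF, 0.45 in NF-Sugar and 0.40 in HF-Sugar. The 35 genes, the lists and the libraries set apart were chosen with earlier results of these data known, and all 35 genes are named, 8 of them and the 3 with the smallest unadjusted p per comparison with full values. Same-numbered mice deviated together (every r above 0.1) for NF with HF-Sugar and for HF with HF-Sugar, and not for the other pairs of groups; the labels name no shared litter or batch. A fit with the number as a replicate block was one alternative. Alternatives are in the closing section. The values of 1 gene of the contraction pathway list are not reported here.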

Additional observations from a re-analysis of the deposited data

How the results depend on the processing

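No member was called in any comparison under any alternative run for it (the interaction has no fit on 2 groups alone): other scalings, a pseudocount of 0.1, no filter, a mean of at least 1 RPKM, the groups compared alone, the thresholds of the study, limma-voom with reads recovered from RPKM steps, the 4 libraries that stood apart as a covariate or left out, and each library left out. A replicate block by mouse number also called 0 members; its median in HF-Sugar minus NF was -0.21, which the block cannot move because each number occurs once in every group. Without the 4 libraries that stood apart the members' median was -0.82 in HF-Sugar minus NF-Sugar. That fit leaves out the lowest NF-Sugar mouse and the highest HF-Sugar mouse for most members, which deepens the difference by itself. Over all genes, upper-quartile scaling called 1 gene in HF-Sugar minus NF-Sugar. With no filter 5 genes were called in HF-Sugar minus NF, 4 in HF minus NF and 4 in NF-Sugar minus NF. The 1 gene of HF-Sugar minus HF became 0 with a pseudocount of 0.1, no filter, these groups alone, without the 4 libraries or with them as a covariate, under limma-voom and at the study's thresholds. Leaving out single libraries gave 0 to 2 genes in HF-Sugar minus HF and 0 to 1 in each other comparison. The causes were not tested. Groups of 3, with recovery of 50% of 2-fold changes on simulated data, limit what could be called, and the low reads of Sgca and Myocd limit their levels. That recovery holds for genes of 1 common dispersion. The members spread more within groups (median SD 0.38) than all genes (0.22), so recovery among them may be lower and was not simulated.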
